A study of Mus musculus with 6 samples.

Results

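The 67 genes described here encode the classical axon guidance ligands and receptors: the semaphorins with their plexin and neuropilin receptors, the ephrins with their Eph receptors, the Slits with their Robo receptors, and the netrins Ntn1 and Ntn4 with Dcc, Neo1 and the Unc5 receptors. They were chosen by symbol from the 20620 genes of the deposited table. The rule uses no measured value, but the choice was made with earlier results of these data known. All 67 passed the filter on low counts and were among the 20604 genes tested. The set holds 20 semaphorins, 11 plexins and neuropilins, 9 EphA receptors, 5 EphB receptors, 7 ephrins, 7 Slits and Robos, and 8 netrins and netrin receptors, which makes 32 ligands and 35 receptors. The ephrin Efna4 was not analysed here.

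RNA was sequenced from the hippocampus of 6 male C57BL/6J mice, 1 library per mouse, so the replicates are separate animals. The 3 control mice carried 1 Braf allele with the Q241R substitution that still held its Neo cassette (Braf Q241R Neo/+) and were 32, 32 and 31 weeks old. The 3 n-Braf mice carried the same substitution with a CaMKII-Cre transgene (Braf Q241R/+;CaMKII-Cre) and were 33, 32 and 34 weeks old. BRAF is a RAS-ERK pathway kinase, the series models cardio-facio-cutaneous syndrome in mice, and the design aims the mutant at mature excitatory neurons, in which the CaMKII promoter is active. Both groups carry the mutant allele, and Cre and the loss of the Neo cassette come together in n-Braf, so their effects and those of the mutant protein cannot be told apart. Hippocampus holds many cell types beside the neurons with Cre. In such bulk RNA, fewer cells of a type and less RNA per cell cannot be told apart.

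Axon guidance molecules steer growing axons in the embryo by attracting or repelling the growth cone. Class 3 semaphorins are secreted and mostly act through a neuropilin that binds them and a plexin that signals. Most other semaphorins are bound to the membrane and bind plexins directly. Ephrins are held on the cell surface, and the A-type ephrins mainly bind EphA receptors while the B-type ephrins are transmembrane and mainly bind EphB receptors. Slits repel axons through Robos, and netrins attract through Dcc and repel through Unc5 receptors. In the adult hippocampus many of these genes stay expressed and have known roles in spine shape, synapse number and plasticity.

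Total counts were 25227112 to 27608256 in the control libraries and 30152839 to 31832245 in the n-Braf libraries. Levels are given in CPM, counts scaled to a common library total (TMM scaling), and the members' counts ran from 5 to 12254 per library. Braf itself stood at 116, 123 and 116 CPM in the controls and at 185, 184 and 205 CPM in n-Braf. That is a log2 difference of 0.69 (SE 0.07), and the groups did not overlap. The adjusted p was 0.0533 in edgeR's quasi-likelihood test, just above the threshold of 0.05. For the same gene it was 6.12e-14 in DESeq2 and 0.0594 in limma-voom. Slc17a7 and Camk2a of excitatory neurons and Prox1 of dentate granule neurons were detected in every library. A list of 6 markers of neighbouring neocortex was also present. It summed to 311, 268 and 363 CPM in the controls and 344, 402 and 312 CPM in n-Braf. Of the 8 choroid plexus epithelium markers, 6 were tested and all 6 were lower in n-Braf. Their summed level was 2287, 1283 and 32.9 CPM in controls 1, 2 and 3 and 20.1 to 33.1 CPM in n-Braf, so controls 1 and 2 stood apart from the other 4 libraries. Control 1 also stood apart over all genes: its pairs with the other libraries had a chi-square per degree of freedom of 52.3 to 70.7, against 8.99 to 14.3 in the other pairs. Values without controls 1 and 2 or without control 1 are given for some of the members.

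No member passed the threshold of an adjusted p of 0.05 in edgeR's quasi-likelihood test, in either direction. Nor did any of the 20604 genes, so the share called over all genes was 0%. The smallest adjusted p among the members was 0.543, for Sema3b. At an unadjusted p under 0.05 there were 6 members, or 8.96%, against 6.82% of all genes. Of these, 3 were higher in n-Braf (Plxna1, Plxna2 and Epha3), against 3.09% of all genes higher, and 3 were lower (Plxnb2, Sema3b and Sema3f), against 3.73% of all genes lower. A share of this size is close to that of all genes.

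The 3 n-Braf libraries all lay above the 3 controls for Plxna1, Plxna2 and Epha3, and all below them for Plxnb2, Sema3b and Unc5b. These 6 members make 8.96% of the set, whereas 11.5% of all genes had groups that did not overlap, 6.09% higher and 5.44% lower. The members were thus separated by group no more often than genes in general. The sign of the fold change was above 0 for 41 of 67 members, or 61.2%, against 49% of all genes, and the median log2 fold change was 0.034 against -0.004 over all genes.

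Ligands and receptors differed in their counts, although this difference was not tested. Among the 32 ligands 16 were higher and 16 lower, and the median of their log2 fold changes was -0.001. Of the 35 receptors 25 were higher and 10 lower, with a median of 0.052. The members' differences were small in most cases: the 95% interval of the log2 fold change lay within 0.5 on either side of 0, or 1.41-fold, for 45 of 67 members, and within 1, or 2-fold, for 60. Larger differences in either direction lie outside the intervals of those members, while the intervals of the others, among them Epha3 (0.08 to 0.56) and Plxnb2 (-0.73 to -0.14), reach further.

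**Figure D1:**
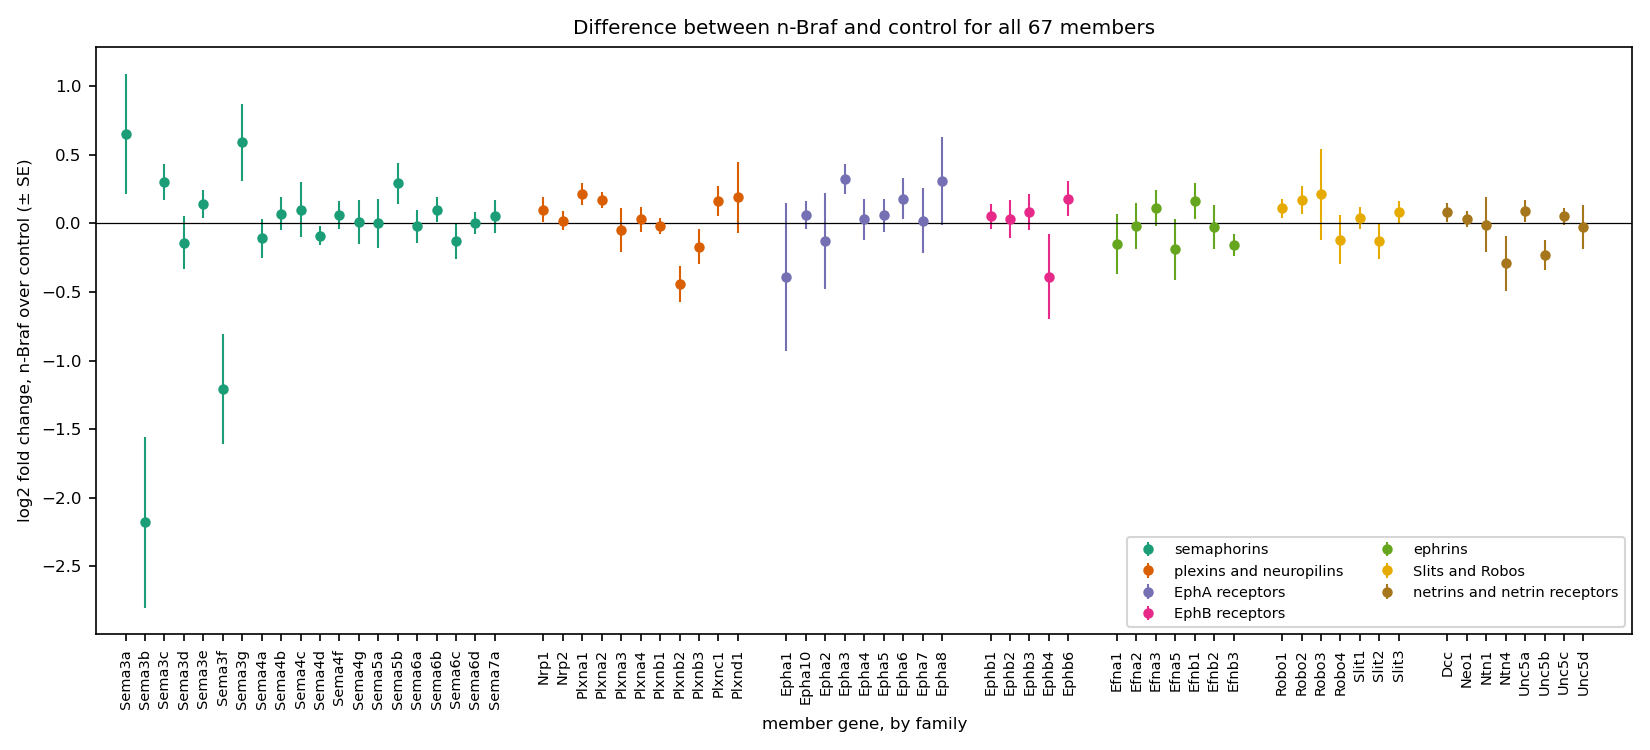
Log2 fold change, n-Braf against control, of each of the 67 members grouped by family, with bars of 1 SE to either side from edgeR's quasi-likelihood fit and a line at 0. Most members lie close to 0, Sema3b is the lowest at -2.18 and Sema3a the highest at 0.65, and no member passed the adjusted threshold.

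Levels between members are compared per length of exon, as CPM per kilobase averaged over the 6 libraries. Epha4, the broadly binding Eph receptor that takes ephrins of both types, was the highest at 40.7, followed by Epha6 at 35.7 and the repellent Slit1 at 28.2. The netrin receptor Unc5a was at 21.6, Plxna1 at 21.2 and Plxna4 at 19.8. The ranges over the 6 libraries overlapped for each of these neighbours except Slit1 and Unc5a: Epha6 ran from 30.7 to 48.1 and Slit1 from 26.7 to 32.3, whereas Unc5a ran from 19.9 to 24.6. The highest semaphorin was Sema7a, which is anchored to the membrane by a lipid, at 15.8, with Sema6b next to it at 15.7. Efnb3 led the ephrins at 13.5 and Ephb6, an Eph receptor without an active kinase, led the EphB receptors at 11.6. At the bottom stood Epha1 at 0.0785, with 5 to 13 counts per library.

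**Figure D2:**
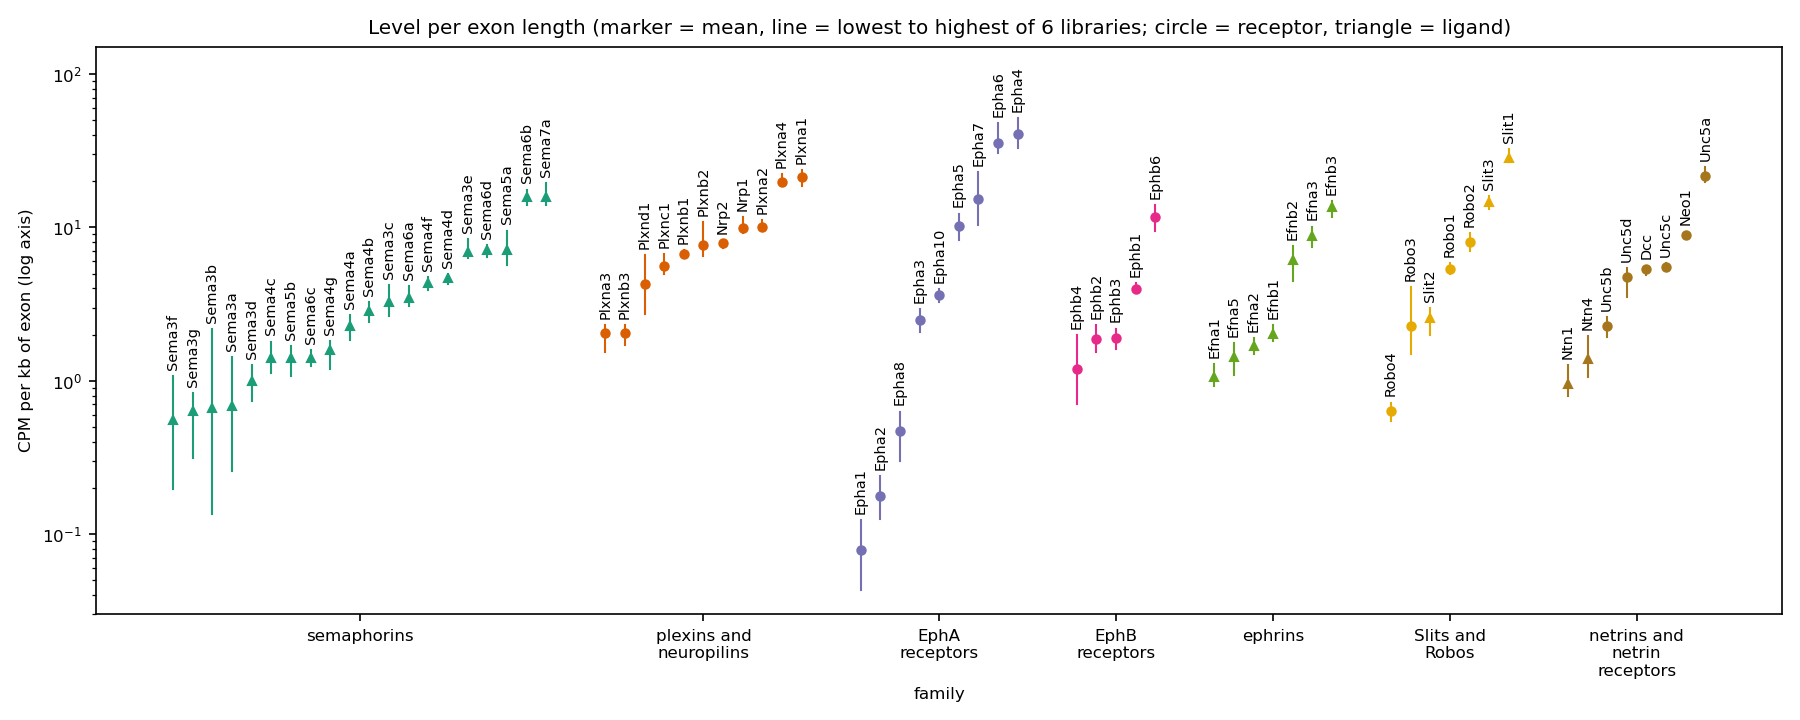
Level of each member in CPM per kilobase of exon (log axis), by family, with the mean as a marker and a line from the lowest to the highest of the 6 libraries; circles are receptors and triangles are ligands. The EphA receptors span the widest range, from Epha1 at 0.0785 to Epha4 at 40.7.

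For the promoters, windows of 250 bases before to 50 bases after the start site were taken from RefSeq (GRCm38.p6), in which 57 of the 67 members had an entry. The 4 shown are those of the members with non-overlapping groups that had one: Plxna2 and Epha3, higher in n-Braf, and Plxnb2 and Unc5b, lower. Binding motifs of 4 kinds of factor known to act downstream of ERK or of neuronal activity were searched on both strands, and capitals mark a match.
Plxna2 promoter, chr1:194619579-194619878, plus strand: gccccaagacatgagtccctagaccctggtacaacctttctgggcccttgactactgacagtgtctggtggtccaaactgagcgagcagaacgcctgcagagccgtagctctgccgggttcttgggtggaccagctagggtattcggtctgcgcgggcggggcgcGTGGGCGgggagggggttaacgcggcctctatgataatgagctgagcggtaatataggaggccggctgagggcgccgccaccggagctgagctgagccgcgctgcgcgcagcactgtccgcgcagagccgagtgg
Epha3 promoter, chr16:63864126-63864425, minus strand: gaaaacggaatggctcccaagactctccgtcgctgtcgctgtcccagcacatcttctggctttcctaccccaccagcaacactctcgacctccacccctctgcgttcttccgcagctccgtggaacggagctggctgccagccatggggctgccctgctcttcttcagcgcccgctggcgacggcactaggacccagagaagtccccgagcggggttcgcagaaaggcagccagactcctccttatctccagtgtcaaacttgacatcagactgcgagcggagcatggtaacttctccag
Plxnb2 promoter, chr15:89180739-89181038, minus strand: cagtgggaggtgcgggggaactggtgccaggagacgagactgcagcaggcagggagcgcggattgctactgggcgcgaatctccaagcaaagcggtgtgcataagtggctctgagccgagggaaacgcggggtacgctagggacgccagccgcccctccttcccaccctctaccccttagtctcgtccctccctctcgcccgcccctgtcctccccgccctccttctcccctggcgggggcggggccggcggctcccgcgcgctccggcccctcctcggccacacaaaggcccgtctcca
Unc5b promoter, chr10:60831532-60831831, minus strand: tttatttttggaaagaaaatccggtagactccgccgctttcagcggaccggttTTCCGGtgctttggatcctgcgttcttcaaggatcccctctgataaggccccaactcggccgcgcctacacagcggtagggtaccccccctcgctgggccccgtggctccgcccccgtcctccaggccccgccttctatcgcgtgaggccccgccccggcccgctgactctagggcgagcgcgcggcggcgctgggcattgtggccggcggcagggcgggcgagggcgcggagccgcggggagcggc

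The Plxna2 window held the letters GTGGGCG, the core bound by EGR factors. It was placed by the RefSeq start and lies wholly inside the GENCODE M21 span of Plxna2 (chr1:194618218-194816869). The first bases of that span are thus not in the window. The Unc5b window held CCGGAA of ETS factors on the opposite strand, where it reads TTCCGG. The Epha3 and Plxnb2 windows held none of the 4 motifs. Over the 73 windows of members, as some genes have more than 1, the EGR letters were present in 9, or 12.3%, against 7.97% of all 32851 promoter windows. The ETS letters were in 7, or 9.59%, against 14.9%, the AP-1 letters TGANTCA in 3, or 4.11%, against 7.81%, and the CRE letters TGACGTCA in 1, or 1.37%, against 1.79%. These matches describe the letters only. The 4 windows had a GC content of 60.7% (Epha3) to 70.3% (Plxnb2), against a median of 52.7% over all windows.

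Among the semaphorins, 12 of 20 were higher and 8 lower. An unadjusted p under 0.05 was found for 2, or 10%, against 6.82% of all genes. Both were class 3 semaphorins encoded near each other on chromosome 9. Sema3b (chr9:107597674-107609229, minus strand), a secreted ligand that signals through neuropilins, was at 10.3, 3.63 and 1.6 CPM in the controls and at 1.56, 1.20 and 0.647 CPM in n-Braf. The lowest control was barely above the highest n-Braf library, and control 1 alone was far above the rest. Its log2 fold change was -2.18 (SE 0.62), with an adjusted p of 0.543.

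Sema3f (chr9:107681500-107710475, minus strand), a repellent for Nrp2-bearing axons such as those of the hippocampal mossy fibre path, was at 5.56, 4.56 and 2.02 CPM in the controls and at 1.91, 2.30 and 1.02 CPM in n-Braf. Control 3 lay among the n-Braf libraries, so the groups overlapped. The log2 fold change was -1.21 (SE 0.40), with an adjusted p of 0.621. Sema3b and Sema3f lie 72.3 kb apart, with 4 tested genes between them. Slc38a3, the gene of a glutamine transporter, was at 37.3, 26.4 and 23.1 CPM in the controls and 22.6, 20 and 19.0 CPM in n-Braf, for a log2 fold change of -0.49 (SE 0.17). Gm19721 was at -0.63 (SE 0.23) and Gnai2, the gene of an inhibitory G protein subunit, at -0.04 (SE 0.07) on that scale. Gnat1, the gene of rod transducin, went the other way at 1.58 (SE 0.55), with 0.0748 to 0.224 CPM in the controls and 0.375 to 0.409 CPM in n-Braf.

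Sema3c, a secreted ligand of neuropilins, was the third semaphorin by p, at 21.3, 19.0 and 22.6 CPM in the controls and 30.1, 21.1 and 26.1 CPM in n-Braf. The groups overlapped in n-Braf 2, and the log2 fold change was 0.30 (SE 0.13; adjusted p = 0.734). Sema3a, the repellent also linked to the nets around interneurons, had the highest log2 fold change of all members, 0.65, but with an SE of 0.44. It was at 8.84, 3.55 and 9.73 CPM in the controls and at 19.7, 7.80 and 7.22 CPM in n-Braf, with only n-Braf 1 above the controls. The 13 semaphorins of the other classes lay between -0.13 and 0.29 in log2 fold change, 8 higher and 5 lower, with none at an unadjusted p under 0.05.

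The ligand Sema4d and the plexin Plxnb3, both known from oligodendrocytes, were at -0.09 (SE 0.07) and -0.17 (SE 0.13) on the log2 scale. For all 8 oligodendrocyte markers n-Braf was lower, by a median of -0.29 on that scale. Their sum was 1928, 1658 and 2149 CPM in the controls and 1414, 1439 and 1930.1 CPM in n-Braf, so it overlapped in n-Braf 3. With the mean oligodendrocyte marker level as a covariate, the members with non-overlapping groups moved both ways on the log2 scale. Plxna1 was at 0.14 instead of 0.21, Plxna2 at 0.11 instead of 0.17 and Unc5b at -0.12 instead of -0.23. Larger in size were Epha3 at 0.43 instead of 0.32, Sema3b at -2.53 instead of -2.18 and Plxnb2 at -0.48 instead of -0.44. Sema3f, whose groups overlapped, was at -1.85 instead of -1.21. Ephb6 was at 0.03 instead of 0.18 in that fit, while Robo2 was at 0.31 instead of 0.17 and Slit2 at -0.40 instead of -0.13. Epha8 was at 0.12 instead of 0.31 and Ephb3 at 0.27 instead of 0.08.

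Plexins are the signalling receptors of the semaphorins, and here n-Braf levels were higher for 7 of 11 plexins and neuropilins and lower for 4. Of the 11, 3 had an unadjusted p under 0.05, or 27.3%, against 6.82% of all genes. The family is small, and this share was not tested. Plxnb2 (chr15:89155549-89180788, minus strand), a receptor of class 4 semaphorins, was at 83.4, 67.6 and 54.3 CPM in the controls and at 50.9, 50.8 and 49.9 CPM in n-Braf. The n-Braf libraries were nearly equal, and the controls were spread above them. The log2 fold change was -0.44 (SE 0.13), with an adjusted p of 0.563 in edgeR's quasi-likelihood test and of 0.0909 in DESeq2, the smallest that DESeq2 gave for any member.

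Plxna1 (chr6:89316314-89362620, minus strand), a co-receptor of class 3 semaphorins and a receptor of class 6, was at 169, 197 and 168 CPM in the controls and at 197, 215 and 208 CPM in n-Braf. Control 2 and n-Braf 1 print alike, with n-Braf 1 just above. The log2 fold change was 0.21 (SE 0.08), with an adjusted p of 0.672. An exon of Plxna1 overlaps Gm26811 on the opposite strand. The library kit was stranded, but the strand setting of the counting was not given in the sources used here. Whether reads of this antisense gene were counted apart from those of Plxna1 is thus not known.

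Plxna2 (chr1:194618218-194816869, plus strand), the receptor of class 6 semaphorins that shapes mossy fibre layering in the hippocampus, was at 163, 167 and 161 CPM in the controls and at 192, 186 and 174 CPM in n-Braf. Every n-Braf library was above every control, and the controls were within a few CPM of each other. The log2 fold change was 0.17 (SE 0.06), with an adjusted p of 0.672. The remaining type A plexins, Plxna3 and Plxna4, stood at -0.05 (SE 0.16) and 0.03 (SE 0.09) on the log2 scale. The neuropilins, which bind class 3 semaphorins, were at 0.10 (SE 0.09) for Nrp1 and 0.02 (SE 0.07) for Nrp2.

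**Figure D3:**
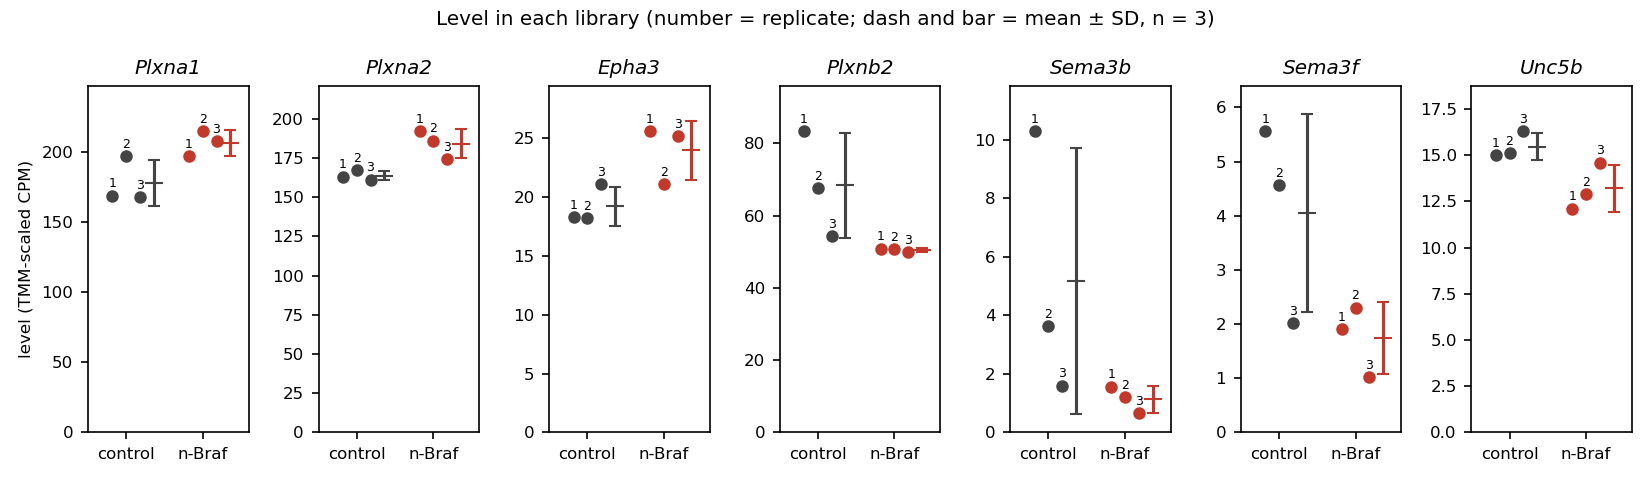
Level in TMM-scaled CPM (vertical axis, from 0) of 7 members in the 3 control and 3 n-Braf mice, with each point numbered by its mouse and a bar for the mean ± SD (n = 3). The n-Braf points of Plxna1, Plxna2 and Epha3 lie above and those of Plxnb2, Sema3b and Unc5b below all control points, while those of Sema3f overlap them.

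Sema3b, Sema3f and Plxnb2 were highest in control 1, which also had the most choroid plexus RNA, and next highest in control 2. When the mean choroid plexus marker level was added as a covariate, their log2 fold changes were -0.16, -0.04 and -0.05. With controls 1 and 2 left out they were -0.48, -0.21 and -0.10, and without control 1 alone they were -1.19, -0.91 and -0.27. Without control 3 they were -2.61, -1.53 and -0.58, with adjusted p of 0.0827, 0.157 and 0.0633. The markers of ciliated ependymal cells, of which 5 were tested, followed a similar order, summing to 49.1, 40.5 and 25.2 CPM in the controls and 14.9 to 18.7 CPM in n-Braf. Of 6 markers of leptomeningeal fibroblasts 5 were lower, and their sum was 86.0, 41.5 and 55.0 CPM in the controls and 58.7, 43.6 and 20.2 CPM in n-Braf. The part of these lists in the 3 differences was not tested.

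For the other separated members the sign was the same in both fits. With the choroid plexus covariate and with controls 1 and 2 left out, the log2 fold change was 0.29 and 0.30 for Plxna1, 0.20 and 0.19 for Plxna2, and -0.33 and -0.30 for Unc5b. Epha3 was smaller, at 0.15 and 0.19, against 0.32 in all libraries. Among the other named members, Sema3c was at 0.17 and 0.19, Ephb6 at 0.05 and 0.05, and Robo2 at 0.06 and 0.09. Ntn4 was at -0.01 and -0.10 and Ephb4 at 0.09 and -0.06, and all of these were closer to 0 than in all libraries. Others were further from 0 in both fits. Efnb1 was at 0.25 and 0.21 against 0.16 in all libraries, Dcc at 0.17 and 0.17 against 0.08, and Efna3 at 0.14 and 0.15 against 0.11. Another list that moved with the group was that of CA1 pyramidal neurons, whose 6 markers were all higher in n-Braf with a median of 0.20 on the log2 scale. They summed to 316, 309.7 and 347 CPM in the controls and 397, 368 and 364 CPM in n-Braf, without overlap, and their part in the values of Plxna1, Plxna2 and Epha3 was not tested. In the fit with the covariate 1 of 67 members had an unadjusted p under 0.05 (Plxna1), or 1.49%, against 2.67% of all genes. With controls 1 and 2 left out there were 2 (Plxna1 and Sema5b), or 2.99%, against 3.15% of all genes.

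The Eph receptors are the largest family of receptor tyrosine kinases. Among the 9 EphA receptors 7 were higher and 2 lower in n-Braf, and the median difference on the log2 scale was 0.06. Epha3 (chr16:63543534-63864175, minus strand), a receptor of A-type ephrins, was at 18.3, 18.2 and 21.1 CPM in the controls and at 25.6, 21.1 and 25.2 CPM in n-Braf. The groups touch, with n-Braf 2 just above control 3. The log2 fold change was 0.32 (SE 0.11), with an adjusted p of 0.632.

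Epha6 was at 165, 191 and 175 CPM in the controls and 184, 162 and 254 CPM in n-Braf, a difference of 0.18 on the log2 scale (SE 0.15, adjusted p = 0.89). Epha8, expressed at low levels, was at 2.54, 1.42 and 1.99 CPM in the controls and 2.88, 2.96 and 1.5 CPM in n-Braf, a difference of 0.31 on the log2 scale (SE 0.32, adjusted p = 0.923). Both overlapped between the groups. Over the fits leaving out 1 library, Epha8 ran from 0.11 without control 2 to 0.55 without n-Braf 3. It was at 0.52 without control 1. In Epha6 the sign rests on n-Braf 3, without which its log2 fold change was -0.03.

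Of the 5 EphB receptors, Ephb1, Ephb2 and Ephb3 are known from dendritic spines of the hippocampus, where they meet B-type ephrins. In n-Braf 4 of the 5 were higher and 1 lower. Ephb6 was at 35.5, 42.4 and 44.7 CPM in the controls and 52.5, 48.3 and 38.4 CPM in n-Braf (log2 fold change 0.18, SE 0.13, adjusted p = 0.858). Ephb4, best known in veins, was at 9.17, 4.71 and 4.98 CPM in the controls and 6.35, 4.72 and 3.27 CPM in n-Braf (log2 fold change -0.39, SE 0.31, adjusted p = 0.877). Without control 1 the value of Ephb4 was -0.02, and without n-Braf 1 it was -0.66. Ephb3 had a log2 fold change of 0.08 (SE 0.13). None of the 5 had groups that did not overlap, and none had an unadjusted p under 0.05. Ephb4 shares exon sequence with Zan on the opposite strand.

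Of the 7 ephrins, 2 were higher and 5 lower (median -0.03 on the log2 scale), with none at an unadjusted p under 0.05. Efnb3, a B-type ephrin and midline barrier to axons, was at 47.4, 43.1 and 45.8 CPM in the controls and 37.1, 44.9 and 40.2 CPM in n-Braf. Only n-Braf 2 lay among the controls, and the log2 fold change was -0.16 (SE 0.08; adjusted p = 0.801). For Efnb1 the log2 fold change was 0.16 (SE 0.13), for Efna3 it was 0.11 (SE 0.13), and an exon of Efna3 overlaps Gm15998 on the opposite strand.

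Slits and Robos were higher in 5 of 7 cases (median 0.082 on the log2 scale), with none at an unadjusted p under 0.05. Robo2 was at 128, 119 and 135 CPM in the controls and 154, 122 and 156 CPM in n-Braf, and Robo1 at 82.6, 87.1 and 87.3 CPM in the controls and 96.5, 85.7 and 94.6 CPM in n-Braf. In both receptors n-Braf 1 and 3 were above all controls and n-Braf 2 was not. Their log2 fold changes were 0.17 (SE 0.10; adjusted p = 0.805) and 0.11 (SE 0.07; adjusted p = 0.831). Slit2, one of their ligands, was at 68.0, 75.7 and 62.0 CPM in the controls and 64.3, 72.5 and 50.5 CPM in n-Braf, with a log2 fold change of -0.13 (SE 0.13).

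The netrin group was evenly divided, 4 higher and 4 lower. Unc5b (chr10:60762593-60831581, minus strand), a netrin receptor of axons and vessels, was at 15.0, 15.1 and 16.3 CPM in the controls and at 12.1, 12.9 and 14.6 CPM in n-Braf. All n-Braf libraries were below the controls, with n-Braf 3 nearest to them. The log2 fold change was -0.23 (SE 0.11), with an adjusted p of 0.754. Ntn4, a netrin of basement membranes, was at 7.31, 4.79 and 4.98 CPM in the controls and 5.10, 4.88 and 3.95 CPM in n-Braf, a difference of -0.29 on the log2 scale (SE 0.20, adjusted p = 0.857). The value of Ntn4 rests on control 1, without which it was -0.07. Dcc, the attractive netrin receptor, was at 0.08 (SE 0.07) on the log2 scale, and the other Unc5 receptors and Neo1 lay between -0.03 and 0.09.

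The spread within groups was set beside that of all genes. The median ratio of the highest to the lowest library was 1.17 in the controls and 1.27 in n-Braf for the members, against 1.25 and 1.24 for all genes. The ratio reached 1.5 in 18 members within n-Braf, or 26.9% against 26.3% of all genes, and in 12 within the controls, or 17.9% against 28.6%. The share within n-Braf was close to that of all genes. The ratio also depends on the level of a gene, and genes of like level were not compared. The lower share within the controls is thus a description only. Mouse n-Braf 3 gave the highest of the 6 values for 19 members, or 28.4%, and the lowest for 18, or 26.9%, against 17.3% and 17.6% of all genes. The members that follow were chosen after their values were seen, so their levels are a description.

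Highest in n-Braf 3 and lowest in n-Braf 2 were 9 members, or 13.4%, against 3.34% of all genes. These were Epha4, Epha5, Epha6, Epha7, Epha10, Ephb1, Sema3e, Sema5a and Sema6d, so 6 of the 9 encode Eph receptors. Epha7, a receptor of A-type ephrins, was at 140.3, 166 and 147 CPM in the controls and at 129.5, 102 and 228 CPM in n-Braf. Sema5a, a ligand that limits synapse number on dentate granule neurons, was at 126, 149 and 125 CPM in the controls and at 115, 106 and 178 CPM in n-Braf. In both, n-Braf 1 and n-Braf 2 lay below every control and n-Braf 3 above every control, while the group means were nearly equal.

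The summed level of 6 markers of dentate granule neurons was also highest in n-Braf 3 and lower in n-Braf 1 and 2 than in every control. It was 306, 339 and 275 CPM in the controls and 224, 229.9 and 412 CPM in n-Braf 1, 2 and 3. Of the 6, Prox1, Dsp, Lct and C1ql2 were highest in n-Braf 3 of all libraries and below every control in n-Braf 1 and 2, as with Dsp at 48.3, 52.4 and 121 CPM in n-Braf 1, 2 and 3. Tdo2 in n-Braf 3 (2.86 CPM) lay within the controls, and Calb1 was at 42.6, 52.3 and 48.9 CPM in the controls and 56.5, 51.9 and 64.4 CPM in n-Braf, so both depart from the summed order. The part of this list in the members' order was not tested. Plxnd1, the receptor of Sema3e, went the other way, at 28.8, 25.4 and 32.8 CPM in the controls and 47.9, 31.5 and 19.8 CPM in n-Braf. Robo3, known from axons that cross the midline, was at 16.6, 13.8 and 13.2 CPM in the controls and 10.3, 12.3 and 28.0 CPM in n-Braf, with n-Braf 3 alone above the controls.

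**Figure D4:**
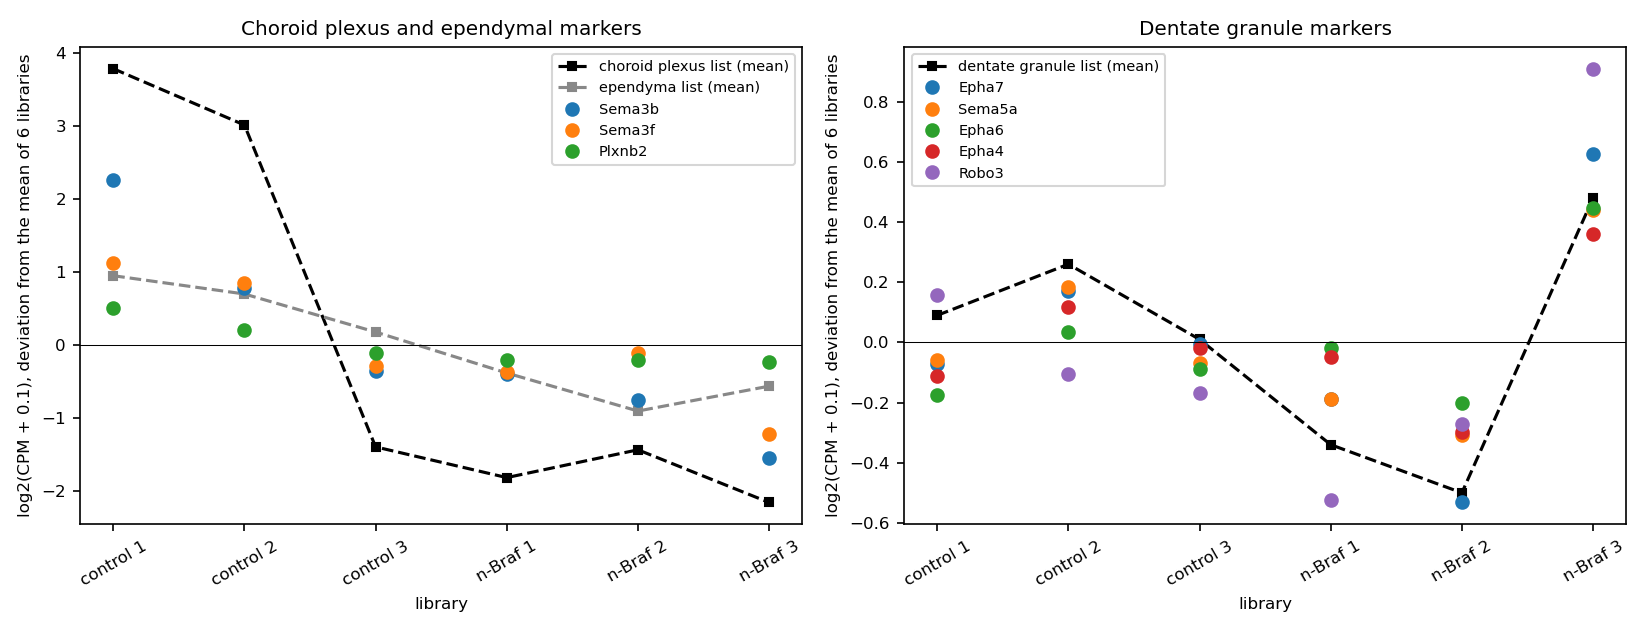
Deviation of log2(CPM + 0.1) from the mean of the 6 libraries (vertical axis) in each library (horizontal axis); points are members and squares joined by dashed lines are the means of marker lists. On the left Sema3b, Sema3f and Plxnb2 are highest in control 1, as are the choroid plexus and ependyma lists, and on the right Epha4, Epha6, Epha7, Sema5a and Robo3 are highest in n-Braf 3, as is the dentate granule list.

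Leaving out n-Braf 3 altered the count more than leaving out any other single library. Without it 14 of 67 members had an unadjusted p under 0.05, 20.9% against 7.57% of all genes, 6 of them higher and 8 lower, and none passed the adjusted threshold (smallest adjusted p 0.48). To Plxna1, Plxna2, Plxnb2, Sema3b and Sema3f this added Epha7, Ephb6, Plxnb3, Plxnc1, Plxnd1, Robo3, Sema5a, Sema6b and Unc5b, while Epha3 was no longer among them. The fit then rests on 2 n-Braf mice.

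Another 68 tested genes act beside or below the guidance receptors, such as the collapsin response mediators and the regulators of actin. None passed the threshold, 48 were higher and 20 lower in n-Braf, and their median was 0.057 on the log2 scale. An unadjusted p under 0.05 was found for 6 higher and 1 lower, or 10.3% against 6.82% of all genes, and 9 had groups that did not overlap, or 13.2% against 11.5%. Srgap1, a partner of Robo1 inside the cell, was at 21.3, 16.7 and 20.7 CPM in the controls and 25.7, 23.9 and 27.5 CPM in n-Braf (log2 fold change 0.40, SE 0.11). Lingo1, a co-receptor of the Nogo receptor, was at 121, 141 and 139.8 CPM in the controls and 191, 169 and 153 CPM in n-Braf (log2 fold change 0.35, SE 0.09).

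Mical2, which oxidises actin below plexins, was at 310.4, 347 and 315 CPM in the controls and 369, 389 and 425 CPM in n-Braf (log2 fold change 0.28, SE 0.08). Dscam, an adhesion molecule and netrin receptor, was at 70.9, 75.9 and 76.5 CPM in the controls and 89.8, 94.5 and 82.2 CPM in n-Braf (log2 fold change 0.26, SE 0.07). All 4 genes had n-Braf libraries above every control and an adjusted p of 0.543 in edgeR's quasi-likelihood test.

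In the authors' deposited table, no member had an adjusted p under 0.05, while 29 genes of the table did. The smallest adjusted p of a member in the authors' deposited table was 0.357, for Plxnb2, with a log2 fold change of -0.44. The authors' deposited table gave -2.19 for Sema3b and -1.21 for Sema3f.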

How the data were processed

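Per the labels' protocols, libraries were made from 10 ng of RNA with a stranded SMART-Seq kit. Per the submitters' processing notes, the authors used bcl2fastq 2.20, fastp 0.20.1, STAR, RSEM and edgeR 3.36.0 with the mm10 build; annotation and strand setting: not given in the sources used here. Values in the deposited file are expected counts, RSEM's estimates of reads per gene, with reads that fit several genes shared among them. It also gives the authors' log2 fold change, p-value and adjusted p-value per gene.

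Expected counts were rounded, filtered with filterByExpr (minimum count 10), scaled with TMM (trimmed means of M values), and tested with edgeR 4.0.16's quasi-likelihood test in R 4.3.3 on all 6 libraries, group as the only term, with Benjamini-Hochberg adjustment over the 20604 genes tested and a threshold of 0.05. The fit was tested on simulated data. Unadjusted p-values come from the same test. A log2 fold change above 0 is higher in n-Braf. Exon lengths and gene coordinates are GENCODE M21 on GRCm38. Genes named with fold changes are, per family, the 3 with the smallest unadjusted p and, of the related guidance genes, the 4 with the smallest; further members and the genes between Sema3b and Sema3f are given as a description. Members and lists were chosen with earlier results of these data known. Alternatives were other scalings, DESeq2 1.42.0, limma-voom (limma 3.58.1), other filters, an adjusted p of 0.1, a replicate block, covariates (age, choroid plexus, oligodendrocyte markers) and leaving libraries out. No pair of libraries agreed within counting noise.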

Additional observations from a re-analysis of the deposited data

How the results depend on the processing

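No member passed the threshold under any of the 18 alternatives. The count of members at an unadjusted p under 0.05, 6 of 67, was 12 with age as a covariate (17.9% against 6.79% of all genes), 1 with the choroid plexus mean as a covariate and 2 with controls 1 and 2 left out together, and it ran from 4 to 14 over the fits that leave out 1 library each. The count of members whose groups do not overlap, also 6, was 3 on library size alone and 26 with controls 1 and 2 left out, where only control 3 remains to be separated from, and ran from 7 (n-Braf 1 out) to 19 (n-Braf 2 out) when 1 library was left out. The share of all genes whose groups do not overlap was taken only for all 6 libraries with TMM scaling (11.5%). Groups with fewer libraries are more easily separated, so these counts cannot be set against genes in general. Among the fits that leave out 1 library, the share of all genes at an unadjusted p under 0.05 was taken only without n-Braf 3 (7.57%). The median log2 fold change, 0.034, was 0.009 on library size alone, -0.022 with age as a covariate and 0.054 with controls 1 and 2 left out. It ran from 0.001 (n-Braf 3 out) to 0.052 (control 2 out) when 1 library was left out. The sign of the median thus changes when age, which was higher on average in n-Braf, is in the fit. Of 378 alternative values for 21 named members 369 kept their sign and 17 members never reversed. The 9 reversals were Epha6 (-0.18 with age; from -0.03 to 0.31 over the fits leaving out 1 library), Ephb3 (-0.06 with age; from -0.01 to 0.17 over those fits), Slit2 (0.04 with age, 0.05 with the choroid plexus mean, 0.01 without controls 1 and 2) and Ephb4 (0.09 with the choroid plexus mean). The cause of these was not tested. Same-numbered mice are different animals, and the deviations of same-numbered libraries correlated at 0.103, -0.0457 and -0.0145, so the numbers do not pair the samples. Control 2 correlated best with n-Braf 3 (0.155). With a replicate block the count at an unadjusted p under 0.05 was 9 (13.4% against 6.26% of all genes), 0 members passed the threshold and the median was 0.03. With 3 mice per group, differences in Sema3a, Sema3b, Sema3f, Sema3g, Epha1, Epha8 and Ephb4 are poorly limited by these data. Their 95% intervals reach beyond 1 on the log2 scale in at least 1 direction, and Epha1 also had low counts (5 to 13 per library).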
